A study of Mus musculus with 4 samples.

Results

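The genes described here encode S100 proteins (S100a4, S100a6, S100a10 and S100a11), annexins (Anxa1 and Anxa2), galectins (Lgals1 and Lgals3), the actin-capping protein CapG (Capg) and the intermediate filament protein vimentin (Vim). They were taken by gene symbol from the authors' deposited table, and all 10 have a row among the 23356 of the table. RNA was sequenced from T helper 17 (Th17) cells, CD4 T cells that make IL-17, of wild-type C57BL/6 mice aged 6-8wks after 48 h in culture. Of 4 libraries, 2 came from cells given 2 ng/ml recombinant murine SAA1 (serum amyloid A1, an acute-phase protein), and 2 from cells with no SAA1, whose titles read veh and which are called vehicle here. The question put by this design is how SAA1 in the culture bears on transcript levels in Th17 cells. The labels do not say whether the 2 libraries of a group came from separate mice or cultures, and cells grown in vitro are a model without the epithelium that makes SAA in the gut.

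S100 proteins are small calcium sensors with paired EF hands that change shape on binding calcium and then dock on target proteins. Annexins bind membrane phospholipids in the presence of calcium, and galectins bind beta-galactosides on glycoproteins of the cell surface and inside cells. CapG caps the barbed ends of actin filaments without cutting them, and vimentin forms the main intermediate filament of lymphocytes. Many of these genes are more active in effector and memory T cells than in naive T cells, where they go with migration and a remodelled cytoskeleton.

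Levels are the authors' Cuffdiff values, 1 per group from its 2 libraries, in FPKM, which counts fragments per kilobase of a transcript, scaled for library depth. How Cuffdiff scaled the libraries against one another is not given. No value per library is given, so the spread between libraries is unknown, the depth is unknown, and each gene has 2 group values only. The error given with a log2 ratio (SAA1 over vehicle) is the standard error implied by the authors' test statistic, and a gene is called at an adjusted p under 0.05 in the authors' deposited table. In these bulk libraries, fewer cells of a type and less RNA per cell cannot be told apart.

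SAA1 went with differences in both directions among these genes. Capg and S100a4 rose and Anxa1 fell, while the other 7 did not pass the test. Capg was at 177 FPKM with SAA1 and 122 FPKM with vehicle, and S100a4 at 248 FPKM with SAA1 and 182 FPKM with vehicle. Anxa1 was at 0.227 FPKM with SAA1 and 0.920 FPKM with vehicle, so its call concerns a gene under 1 FPKM in both groups. The 3 calls are 30% of the 10 genes, against 6.52% of the 11481 tested rows of the table. By direction, 2 of 10 were higher, against 3.97% of all tested rows, and 1 of 10 was lower, against 2.55%. These genes were proposed with results of the same data in view, so their share is a description.

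Levels ranged over 3 orders of magnitude and fell into an abundant and a scarce set. Lgals1, S100a10, S100a6, Vim, S100a4, Capg and Anxa2, which are 7 of the 10, lay between 92.4 and 532 FPKM in both groups. Lgals3, S100a11 and Anxa1 lay under 7 FPKM in both groups. With SAA1 the order of levels was Lgals1, S100a10, S100a6, S100a4, Vim, Capg, Anxa2, Lgals3, S100a11 and Anxa1. With vehicle the order was the same except that Vim stood above S100a4. Whether neighbours in this order differ beyond the spread between libraries could not be tested. Summed over the 10 genes, the level was 2020 FPKM with SAA1 and 2078 FPKM with vehicle, or 0.163% and 0.175% of the FPKM in the table with SAA1 and with vehicle.

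**Figure D1:**
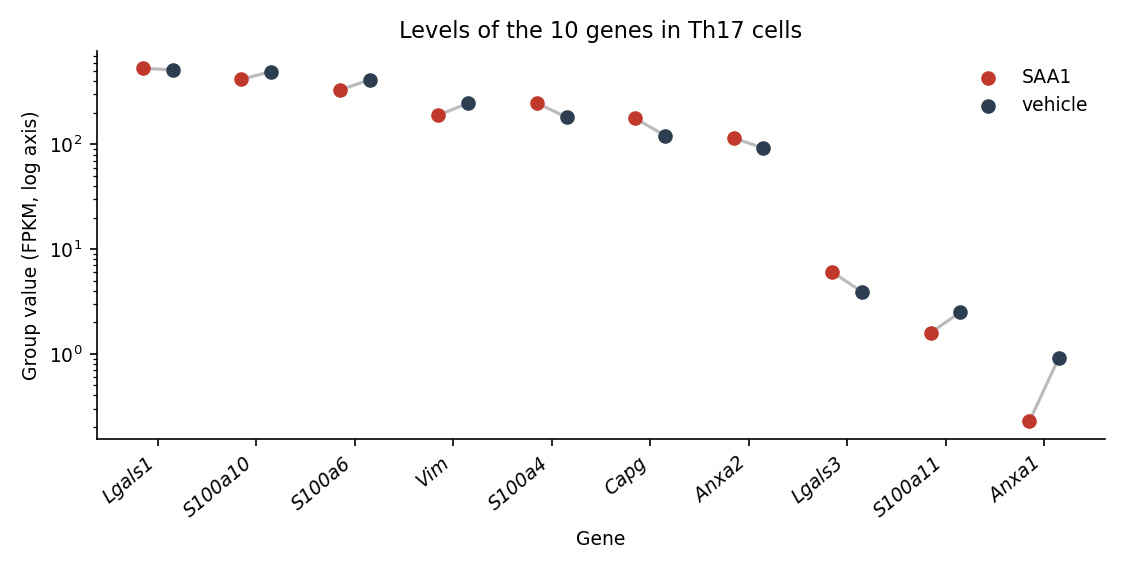
Group values in FPKM (log axis) of the 10 genes, ordered by the vehicle value, with SAA1 as red points to the left and vehicle as dark points to the right of each pair, 1 value per group and no replicate error. Capg (177 and 122 FPKM) and S100a4 (248 and 182 FPKM) stand higher with SAA1, Anxa1 (0.227 and 0.920 FPKM) lower, and the 7 abundant genes all lie at or above 92.4 FPKM.

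Of the 4 S100 genes, S100a4 was the one called. S100A4 is a calcium sensor that binds non-muscle myosin heavy chains and is tied to cell motility. S100a4 was at 248 FPKM with SAA1 and 182 FPKM with vehicle, a 1.36-fold ratio with a log2 ratio of 0.44 ± 0.21 (95% interval 0.037 to 0.84) (adjusted p = 0.036 in the authors' deposited table). Its level ranked 305 with SAA1 and 450 with vehicle among the 10701 rows of at least 1 FPKM in either group, counted from the highest. Of the 10689 such rows that were tested, 7.09% had a higher log2 ratio than S100a4. The call did not hold with a normal p-value of the statistic that the authors deposited (adjusted p = 0.49), and the 1.36-fold ratio lies under a minimum of 1.5-fold.

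S100a6, which encodes calcyclin, a partner of the CacyBP/SIP protein, had the opposite sign. S100a6 was at 331 FPKM with SAA1 and 414 FPKM with vehicle, a log2 ratio of -0.32 ± 0.20 (95% interval -0.71 to 0.072, adjusted p = 0.20 in the authors' deposited table). The same holds for S100a10, whose product has lost calcium binding in its EF hands and joins annexin A2 in a heterotetramer at membranes. S100a10 was at 418 FPKM with SAA1 and 497 FPKM with vehicle, a log2 ratio of -0.25 ± 0.20 (95% interval -0.64 to 0.14, adjusted p = 0.39 in the authors' deposited table). Neither difference passed the test, and both intervals, which assume a normal statistic, contain 0. The authors' unadjusted Cuffdiff p was 0.024 for S100a6 and 0.076 for S100a10.

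S100a11, a calcium sensor that pairs with annexin A1, was at a low level. S100a11 was at 1.59 FPKM with SAA1 and 2.51 FPKM with vehicle, a log2 ratio of -0.65 ± 0.67. Its 95% interval of -1.97 to 0.66 is more than 3 times as wide as that of S100a10 (adjusted p = 0.60 in the authors' deposited table). Ratios of SAA1 over vehicle from 0.256 to 1.58 are within that interval. The log2 ratio of S100a10 minus that of S100a11 was 0.40 ± 0.70 (95% interval -0.97 to 1.77, errors taken as independent). Together the 4 S100 genes summed to 999 FPKM with SAA1 and 1096 FPKM with vehicle.

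S100a4 and S100a6 are neighbours on the plus strand of chromosome 3, with S100a5 between them. On mm10, S100a4 spans 90603770 to 90606045 and S100a6 spans 90612894 to 90614414, a gap of 6848 bases, and the longest coding transcript of each has 3 exons in GENCODE M21. The level of S100a4 was 0.747 of that of S100a6 with SAA1 and 0.441 of it with vehicle. The difference between their log2 ratios (S100a4 minus S100a6) was 0.76 ± 0.29 (95% interval 0.20 to 1.32), with the 2 standard errors taken as independent although both genes were read from the same libraries. The pair was chosen with its values known, so no p is given and the interval is no test of a difference. S100a5 was at 2.10 FPKM with SAA1 and 1.80 FPKM with vehicle, far under both neighbours.

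The bases upstream of both genes are printed because these neighbours had log2 ratios of opposite sign. Each window holds the 250 bases before the first transcribed base that RefSeq gives (GRCm38.p6, plus strand), at chr3:90603520-90603769 for S100a4 and chr3:90612644-90612893 for S100a6. Capitals mark 5 motifs searched for on both strands: the TATA box letters TATAAA, the CCAAT box, the GC box letters GGGCGG, the AP-1 core TGANTCA and the STAT core TTCNNNGAA. No 2 marked matches overlap in these windows.
S100a4: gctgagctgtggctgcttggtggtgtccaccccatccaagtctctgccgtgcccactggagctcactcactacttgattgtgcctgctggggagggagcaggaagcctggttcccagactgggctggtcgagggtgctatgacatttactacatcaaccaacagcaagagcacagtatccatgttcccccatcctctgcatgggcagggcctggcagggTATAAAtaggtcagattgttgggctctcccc
S100a6: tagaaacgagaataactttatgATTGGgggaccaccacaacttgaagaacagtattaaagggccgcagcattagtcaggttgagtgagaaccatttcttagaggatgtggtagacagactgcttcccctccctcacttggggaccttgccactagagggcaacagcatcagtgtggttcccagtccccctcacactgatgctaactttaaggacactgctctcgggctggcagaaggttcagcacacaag
The S100a4 window holds TATAAA beginning 31 bases before the start, and 12.4% of the 32851 RefSeq promoter windows hold that motif. The S100a6 window holds a CCAAT box on the other strand, beginning 228 bases before the start, as do 33.8% of all windows on either strand. A match is a description of the letters and no site or cause.

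S100a4 was also the one call in the whole S100 family. Of 16 family genes with a row, 8 reached 1 FPKM in either group and 8 were tested, of which 1 (12.5%, against 6.52% of all tested rows) was called higher, 0 lower and 7 not called. The other expressed genes were S100a13, S100a3, S100a1 and S100a5. S100a13, whose product helps to export growth factors that lack a signal peptide, was at 46.8 FPKM with SAA1 and 51.4 FPKM with vehicle (adjusted p = 0.81 in the authors' deposited table). S100a3 was at 17.2 FPKM with SAA1 and 15.9 FPKM with vehicle (adjusted p = 0.90 in the authors' deposited table). The median log2 ratio of the 8 expressed genes was -0.0077, against -0.02 over all rows of at least 1 FPKM. S100a8 and S100a9, the subunits of calprotectin in neutrophils and monocytes, were at or near 0. S100a8 was listed at 0.147 FPKM with SAA1 and 0 with vehicle, and S100a9 at 0 in both groups.

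**Figure D2:**
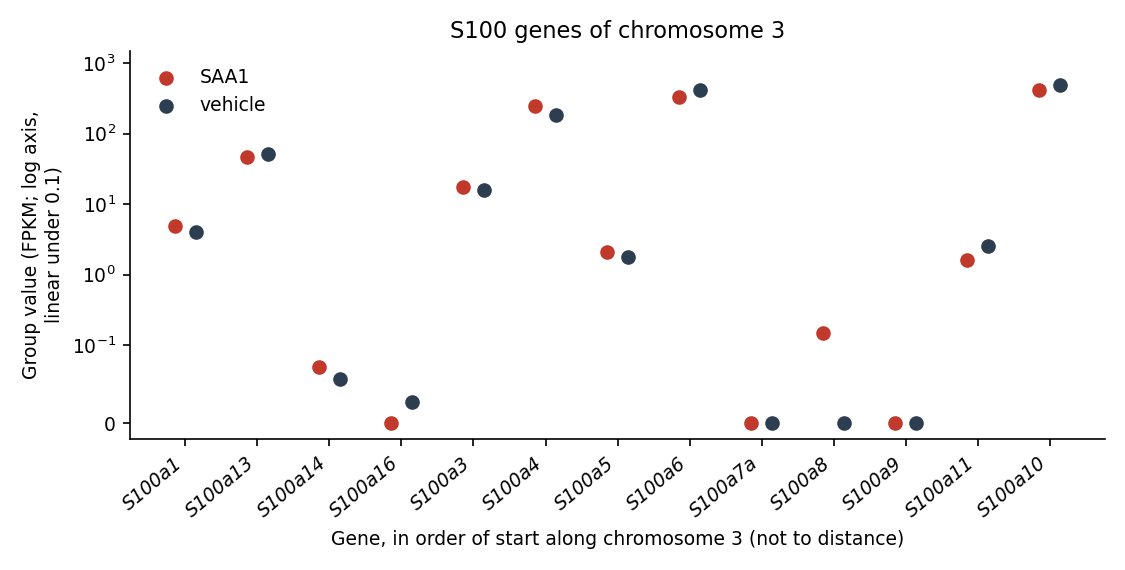
Group values in FPKM (log axis, linear under 0.1) of the 13 S100 family genes of chromosome 3 in order of their start positions, with SAA1 as red points to the left and vehicle as dark points to the right. S100a4, S100a6 and S100a10 stand above all the others in both groups, and S100a4 alone of these 3 stands higher with SAA1 (248 against 182 FPKM).

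The annexins differed in level by orders of magnitude. Annexin A2 links membranes to actin and, with S100A10, forms a surface receptor for plasminogen activation. Anxa2 was at 115 FPKM with SAA1 and 92.4 FPKM with vehicle, a log2 ratio of 0.31 ± 0.20 (95% interval -0.083 to 0.71, adjusted p = 0.20 in the authors' deposited table). It did not pass the test, and its interval, which assumes a normal statistic, contains 0, while the authors' unadjusted Cuffdiff p was 0.025. The transcript of its partner S100a10 was 3.65 times as abundant as Anxa2 with SAA1 and 5.38 times as abundant with vehicle. The log2 ratio of S100a10 minus that of Anxa2 was -0.56 ± 0.28 (95% interval -1.12 to -0.0055), with errors taken as independent. This pair too was chosen with its values known, so the interval is no test of a difference. Anxa2 lies on chromosome 9 from 69453683 to 69491785, where the row of a microRNA, Mir3109, overlaps it.

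Anxa1 encodes annexin A1, a phospholipid-binding protein that glucocorticoids induce and that acts on formyl peptide receptors. Anxa1 was at 0.227 FPKM with SAA1 and 0.920 FPKM with vehicle, a log2 ratio of -2.02 ± 0.75 (95% interval -3.48 to -0.56). It was just under the threshold (adjusted p = 0.048 in the authors' deposited table). The ratio of vehicle over SAA1 was 4.05, and with 1 FPKM added to both values the log2 ratio was -0.65. As for S100a4, the call did not hold with a normal p-value of the statistic that the authors deposited (adjusted p = 0.19), and Anxa1 left the test when rows under 1 FPKM in both groups were removed. Of the 792 tested rows under 1 FPKM in both groups, 6.06% were called in the authors' deposited table. Of the receptors, Fpr2 was listed at 0 in both groups and Fpr1 at 0 with SAA1 and 0.0279 FPKM with vehicle.

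Annexin A1 and galectin 3 are abundant in myeloid cells, so the markers of those cells were read beside them. Of 16 myeloid and dendritic cell markers with a row, 4 reached 1 FPKM (Ctss, Cd74, H2-Ab1 and Cd68), and 12 lay under it in both groups. The list summed to 57.1 FPKM with SAA1 and 63.6 FPKM with vehicle. Most of that sum was Ctss, at 34.5 FPKM with SAA1 and 37.2 FPKM with vehicle (adjusted p = 0.86 in the authors' deposited table). H2-Ab1, an MHC class II chain, was higher at 10.01 FPKM with SAA1, against 4.60 FPKM with vehicle, and Cd74, the class II invariant chain, was lower at 10.9 FPKM with SAA1, against 19.4 FPKM with vehicle. Both were called in the authors' deposited table (adjusted p = 0.0019 each). They are 50% of the 4 tested markers of that list, against 6.52% of all tested rows, a share that rests on few genes. C1qa, C1qb and C1qc were listed at 0 in both groups, and Lyz2 at 0.0261 FPKM with SAA1 and 0.178 FPKM with vehicle. The part of such cells in the values of Anxa1 and Lgals3 was not tested. All 7 neutrophil markers with a row lay under 1 FPKM in both groups and summed to 0.171 FPKM with SAA1 and 0.0448 FPKM with vehicle.

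Anxa1 lies on the minus strand of chromosome 19 from 20373434 to 20390671 on mm10, and its longest coding transcript has 13 exons in GENCODE M21. The window upstream of its RefSeq start is shown because Anxa1 was the member called lower, and spans chr19:20390672-20390921 on the minus strand (GRCm38.p6). In GENCODE M21 the gene reaches 20390944, so these bases lie inside it there and a start upstream of them is annotated. Capitals mark the same motifs as above.
Anxa1: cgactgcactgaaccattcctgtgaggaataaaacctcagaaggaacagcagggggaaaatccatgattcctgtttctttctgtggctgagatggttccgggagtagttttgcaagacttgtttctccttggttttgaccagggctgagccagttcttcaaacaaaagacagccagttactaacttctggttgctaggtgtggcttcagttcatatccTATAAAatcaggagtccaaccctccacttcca
The window holds TATAAA beginning 32 bases before the start, as the windows of Vim (32 bases) and Anxa2 (17 bases) also do. TGANTCA, the core letters bound by AP-1 factors, was found upstream of Anxa2 and S100a11 among the 8 genes with a window, and in 6.75% of all windows. TTCNNNGAA, the core letters bound by STAT factors, was found in none of the 8 windows and in 7.02% of all windows, which says only that these letters are not in the 250 bases searched.

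Another annexin, outside the chosen genes, was called as well. Anxa4, which encodes a calcium-dependent phospholipid-binding annexin, rose to 11.5 FPKM with SAA1, against 5.51 FPKM with vehicle (2.09-fold, log2 ratio 1.06 ± 0.25, adjusted p = 0.0019 in the authors' deposited table, the smallest value it holds). Of 12 annexin genes, 8 were tested by the authors, of which 1 (Anxa4) was called higher, 1 (Anxa1) lower and 6 not called. The calls are 25% of the 8, against 6.52% of all tested rows, and include Anxa1, under 1 FPKM in both groups. The abundant Anxa6, a long annexin with a doubled core, was at 123 FPKM with SAA1 and 136 FPKM with vehicle (adjusted p = 0.74 in the authors' deposited table). Anxa5, the annexin used to stain dying cells, was at 65.9 FPKM with SAA1 and 64.9 FPKM with vehicle (adjusted p = 0.98 in the authors' deposited table). Anxa7 was at 58.5 FPKM with SAA1 and 70.3 FPKM with vehicle (adjusted p = 0.35 in the authors' deposited table). The median log2 ratio of the 6 expressed annexins was -0.0017.

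Lgals1 was the most abundant of the 10 genes in both groups. Galectin 1 is a secreted lectin that crosslinks glycoproteins of T cells and can promote their death. Lgals1 was at 532 FPKM with SAA1 and 517 FPKM with vehicle, a 1.03-fold ratio with a log2 ratio of 0.04 ± 0.20 that did not pass the test (adjusted p = 0.97 in the authors' deposited table). Its 95% interval runs from -0.35 to 0.43, so ratios from 0.786 to 1.35 are within the error. Its level ranked 158 with SAA1 and 151 with vehicle among the rows of at least 1 FPKM.

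Galectin 3 is a chimeric lectin with a collagen-like tail that forms lattices on glycoproteins. Lgals3 was at 6.04 FPKM with SAA1 and 3.90 FPKM with vehicle, a 1.55-fold ratio with a log2 ratio of 0.63 ± 0.31 (95% interval 0.033 to 1.23). It missed the threshold by a small margin and was not called (adjusted p = 0.051 in the authors' deposited table). Adjusted again over only those tested rows whose interval overlaps no other row, the p was 0.046, under the threshold. Lgals1 was 88.1 times as abundant as Lgals3 with SAA1 and 132 times as abundant with vehicle. The log2 ratio of Lgals1 minus that of Lgals3 was -0.59 ± 0.36, with a 95% interval of -1.30 to 0.13 that contains 0. Lgals3 lies on chromosome 14 from 47373860 to 47386167, and Lgals1 on chromosome 15 from 78926725 to 78930465.

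The galectin list holds 11 genes with a row, among them Lgals3bp, which encodes no galectin but a secreted glycoprotein that galectins bind. Of the 11, 8 reached 1 FPKM and 9 were tested by Cuffdiff, with 0 called in the authors' deposited table, where 6.52% of all tested rows were. At an unadjusted p under 0.05, 2 of the 9 passed, against 15.8% of all tested rows. Those 2 were Lgals3 and Lgals9, with opposite signs. Lgals9, whose product has a pair of linked lectin domains, was at 14.4 FPKM with SAA1 and 19.5 FPKM with vehicle (log2 ratio -0.44 ± 0.23, adjusted p = 0.083 in the authors' deposited table). Lgals3bp was at 22.3 FPKM with SAA1 and 27.3 FPKM with vehicle (adjusted p = 0.31 in the authors' deposited table). Their median log2 ratio was -0.14 over the 8 expressed genes. Lgals4 and Lgals6 are listed with the same interval on chromosome 7 (28833794 to 28841703), so their values are uncertain.

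Capg had the smallest adjusted p of the 10 genes. Capg was at 177 FPKM with SAA1 and 122 FPKM with vehicle, a 1.45-fold ratio with a log2 ratio of 0.54 ± 0.20 (95% interval 0.14 to 0.93) that passed the test (adjusted p = 0.0047 in the authors' deposited table). Its level ranked 473 with SAA1 and 797 with vehicle, and 5.44% of the tested rows of at least 1 FPKM had a higher log2 ratio. Among the 1041 tested rows of at least 100 FPKM in either group, 24 (2.31%) were called higher in the authors' deposited table. The call held at an adjusted p under 0.01 but not with a normal p-value of the statistic that the authors deposited (adjusted p = 0.20), and the ratio lies just under 1.5-fold.

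Capg spans chromosome 6 from 72544391 to 72562983 on mm10, with 10 exons in its longest coding transcript. Its RefSeq window (chr6:72549397-72549646, GRCm38.p6, plus strand) is shown because Capg had the strongest call, and ends at a start 5.26 kb inside the interval of the deposited row, which spans other starts too. It held none of the motifs searched for, and so has no capitals.
Capg: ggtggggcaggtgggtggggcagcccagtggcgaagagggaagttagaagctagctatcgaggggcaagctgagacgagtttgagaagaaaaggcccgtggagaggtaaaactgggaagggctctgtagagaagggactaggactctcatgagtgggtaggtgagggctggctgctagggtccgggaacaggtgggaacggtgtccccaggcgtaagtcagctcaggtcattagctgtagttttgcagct
The group values sum over all transcripts of Capg, so use of one start or another cannot be read from them.

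Vim leaned the other way from Capg. Vim was at 191 FPKM with SAA1 and 247 FPKM with vehicle, a log2 ratio of -0.37 ± 0.20 (95% interval -0.76 to 0.028). It was not called at 0.05 (adjusted p = 0.096 in the authors' deposited table). Its interval, which assumes a normal statistic, contains 0, while the authors' unadjusted Cuffdiff p was 0.0084. The level of Capg was 0.924 of that of Vim with SAA1 and 0.493 of it with vehicle. The log2 ratio of Capg minus that of Vim was 0.90 ± 0.28 (95% interval 0.35 to 1.46), under the same assumption of independent errors. Capg had the highest and Vim the lowest log2 ratio of the 7 abundant genes, a pair chosen with its values known. The interval is thus no test of a difference between them. Vim spans chromosome 2 from 13574311 to 13582826.

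Vimentin, galectin 1 and S100A6 are also abundant in fibroblasts, whose markers were read beside these genes. Of 10 fibroblast and stromal markers, 1 (Lum) reached 1 FPKM, and the list summed to 6.94 FPKM with SAA1 and 22.6 FPKM with vehicle. Lum fell to 5.83 FPKM with SAA1, against 22.0 FPKM with vehicle (adjusted p = 0.0019 in the authors' deposited table). No other gene of the list was tested, so a share called says nothing about the list. Of the collagens, Col1a1 was listed at 0.208 FPKM with SAA1 and 0.0708 FPKM with vehicle, Col1a2 at 0.0396 FPKM with SAA1 and 0 with vehicle, and Col3a1 at 0 with SAA1 and 0.00883 FPKM with vehicle. Also under 1 FPKM in both groups, Fn1, Sparc, Acta2 and Pdgfrb were listed higher with SAA1, and Dcn and Pdgfra lower. The sum of the list is thus mostly Lum, and its fall is that of Lum alone. The part of fibroblasts in the values of Vim, Lgals1 and S100a6 was not tested.

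**Figure D3:**
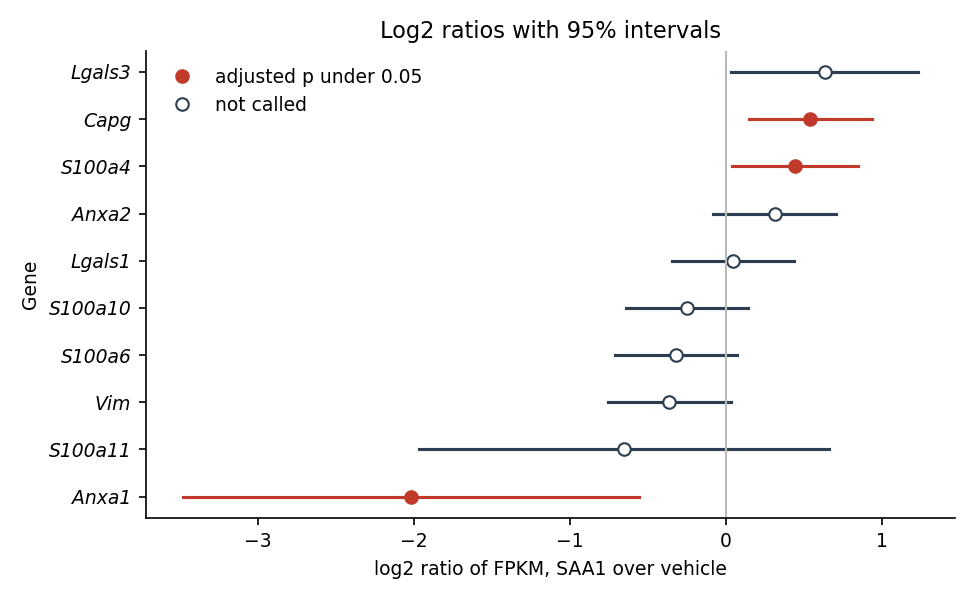
Log2 ratio of FPKM, SAA1 over vehicle, for the 10 genes, with bars for the 95% interval from the standard error implied by the authors' test statistic; filled red points were called at an adjusted p under 0.05. Capg (0.54) and S100a4 (0.44) lie above 0 and Anxa1 (-2.02) below it, and the intervals of Anxa1 and S100a11 are the widest of the 10.

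Taking the genes as a list, 5 had a log2 ratio above 0 and 5 below it. The median log2 ratio was -0.10 and the mean -0.16, against a median of -0.02 over all rows of at least 1 FPKM. Among the 7 abundant genes the log2 ratios ran from -0.37 (Vim) to 0.54 (Capg) and the standard errors from 0.20 to 0.21, and the 2 called among them had the largest ratios in size. At an unadjusted p under 0.05 in the authors' deposited table, 7 of the 10 passed (all but S100a10, S100a11 and Lgals1), against 1819 of the 11481 tested rows (15.8%). Of those 7, 4 were higher (Lgals3, Capg, S100a4 and Anxa2) and 3 lower (Anxa1, Vim and S100a6). Which genes resemble one another across samples could not be measured from 2 values a gene.

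**Figure D4:**
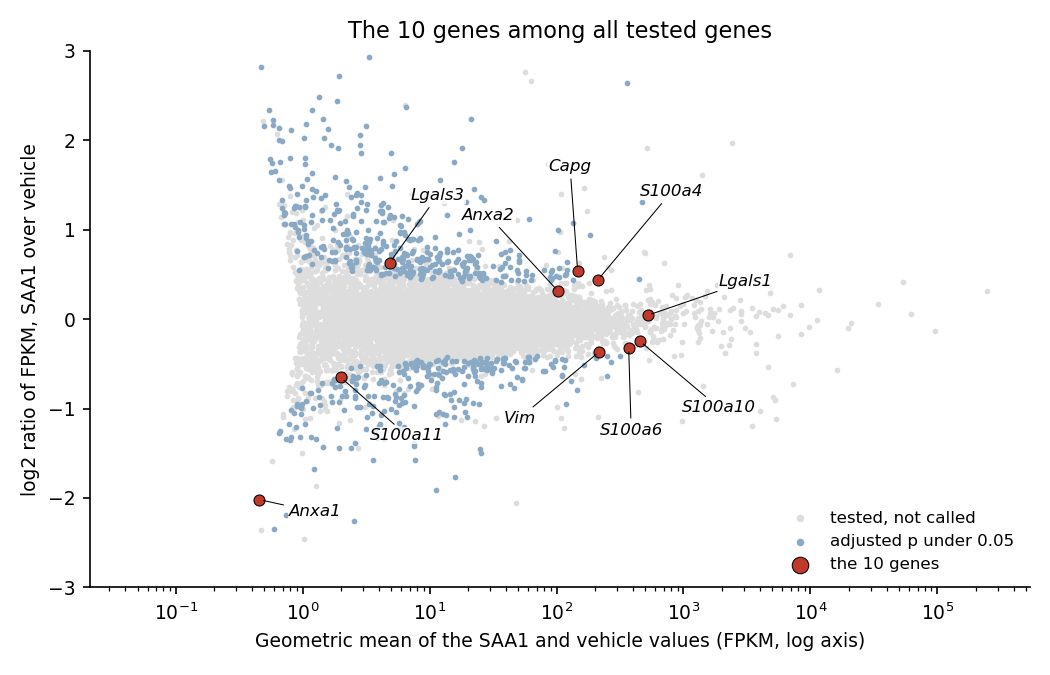
Log2 ratio (SAA1 over vehicle) against the geometric mean of both group values (FPKM, log axis) for the tested rows of at least 1 FPKM, in grey where not called and blue where called at an adjusted p under 0.05, with the 10 genes as red points; 13 rows beyond a log2 ratio of 3 in size lie outside the axis. The abundant genes stay within -0.37 and 0.54, and Anxa1, under 1 FPKM in both groups, stands at -2.02.

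Capg was the single call among genes that cap or sever actin filaments. Of 15 actin capping and severing genes, 12 were tested, of which 1 (Capg) was called higher, 0 lower and 11 not called in the authors' deposited table. That is 8.33% of the 12, near the 6.52% of all tested rows. Cfl1, the filament-severing protein cofilin 1, was at 693 FPKM with SAA1 and 681 FPKM with vehicle (adjusted p = 0.98 in the authors' deposited table). The capping protein subunit gene Capza2 was at 205 FPKM with SAA1 and 190.1 FPKM with vehicle, and Capzb at 80.4 FPKM with SAA1 and 100.3 FPKM with vehicle. Gsn, which encodes gelsolin, the severing relative of CapG, was at 12.0 FPKM with SAA1 and 8.91 FPKM with vehicle (log2 ratio 0.43 ± 0.22, adjusted p = 0.071 in the authors' deposited table). Gsn was named after its value was seen. Over the 12 expressed genes the median log2 ratio was 0.02.

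Among intermediate filament genes, a nuclear lamin moved. Lmna, which encodes the A-type lamins of the nuclear envelope, rose to 9.53 FPKM with SAA1, against 5.15 FPKM with vehicle (1.85-fold, log2 ratio 0.89 ± 0.25, adjusted p = 0.0019 in the authors' deposited table). It was the single call among 5 tested genes of that list (20%, against 6.52% of all tested rows), with 0 lower and 4 not called. A share of so few genes says little about the list. Plec, which encodes the linker plectin, was at 27.9 FPKM with SAA1 and 27.6 FPKM with vehicle. Lmnb1, a B-type lamin, was at 70.3 FPKM with SAA1 and 64.2 FPKM with vehicle (adjusted p = 0.78 in the authors' deposited table). Des, Gfap and the keratin gene Krt8 were under 0.1 FPKM in both groups.

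Cytoskeletal genes of effector lymphocytes had log2 ratios of both signs. Of 29 tested genes, 2 (6.90%, against 6.52% of all tested rows) were called in the authors' deposited table, both higher, and 27 were not called. Of the 29 log2 ratios, 11 were above 0 and 18 below. At an unadjusted p under 0.05 in the authors' deposited table, 7 of the 29 passed, against 15.8% of all tested rows. Of those 7, 5 were lower (Arpc5, Msn, Actg1, Lsp1 and Tmsb4x). Crip1, which encodes a small LIM-domain protein, rose to 138 FPKM with SAA1, against 98.1 FPKM with vehicle (log2 ratio 0.50 ± 0.22, adjusted p = 0.034 in the authors' deposited table), a call lost with a normal p-value of the deposited statistic (adjusted p = 0.42). Vcl, which encodes vinculin, the link between integrin adhesions and actin, rose to 8.58 FPKM with SAA1, against 5.23 FPKM with vehicle (log2 ratio 0.72 ± 0.22, adjusted p = 0.0019 in the authors' deposited table). The most abundant genes did not pass the test. Actb, which encodes beta-actin, was at 5202 FPKM with SAA1 and 5921 FPKM with vehicle, and Tmsb4x, which encodes an actin monomer-binding thymosin, at 2079 FPKM with SAA1 and 2533 FPKM with vehicle. Over the 29 genes the median log2 ratio was -0.09.

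Partners and receptors of the encoded proteins were read next. Of 22 such genes, 15 were tested by Cuffdiff, with 0 called in the authors' deposited table, where 6.52% of all tested rows were. At an unadjusted p under 0.05, 2 of the 15 (Pdcd6ip and Ahnak) passed, against 15.8% of all tested rows. Ptprc, which encodes the CD45 phosphatase, a glycoprotein bound by galectins, was at 385 FPKM with SAA1 and 469 FPKM with vehicle (adjusted p = 0.36 in the authors' deposited table). Bsg, which encodes the glycoprotein basigin and whose row overlaps many others, was at 367 FPKM with SAA1 and 329 FPKM with vehicle (adjusted p = 0.96 in the authors' deposited table). Spn, which encodes CD43, was at 224 FPKM with SAA1 and 238 FPKM with vehicle. Myh9, the myosin heavy chain that S100A4 binds, was at 97.1 FPKM with SAA1 and 100.2 FPKM with vehicle. Cacybp, a target of S100A6, was at 129.6 FPKM with SAA1 and 139.7 FPKM with vehicle. Ahnak, a giant scaffold that binds the S100A10 and annexin A2 complex, was at 47.1 FPKM with SAA1 and 33.4 FPKM with vehicle (log2 ratio 0.50 ± 0.42, adjusted p = 0.28 in the authors' deposited table). Pdcd6ip, which encodes ALIX, an endosomal sorting protein, had the opposite sign, at 23.7 FPKM with SAA1 and 29.9 FPKM with vehicle (log2 ratio -0.33 ± 0.20, adjusted p = 0.17 in the authors' deposited table). Both were named after their values were seen. Over the 15 expressed genes the median log2 ratio was -0.06.

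Over all 7 lists, 108 genes other than the 10 have a row, 76 of them were tested and 4 (Anxa4, Lmna, Crip1 and Vcl) were called, all higher. That is 5.26%, close to the 6.52% of all tested rows. Of the markers of T cell identity, all 10 reached 1 FPKM, with Cd4, which encodes the co-receptor of helper T cells, at 131 FPKM with SAA1 and 162 FPKM with vehicle. Among them Thy1 rose to 96.8 FPKM with SAA1, against 66.0 FPKM with vehicle, and Cd3e fell to 28.2 FPKM with SAA1, against 39.1 FPKM with vehicle, each called in the authors' deposited table. These calls are 20% of the 10 tested T cell markers, against 6.52% of all tested rows. Of the 10 log2 ratios, 3 were above 0 and 7 below.

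**Figure D5:**
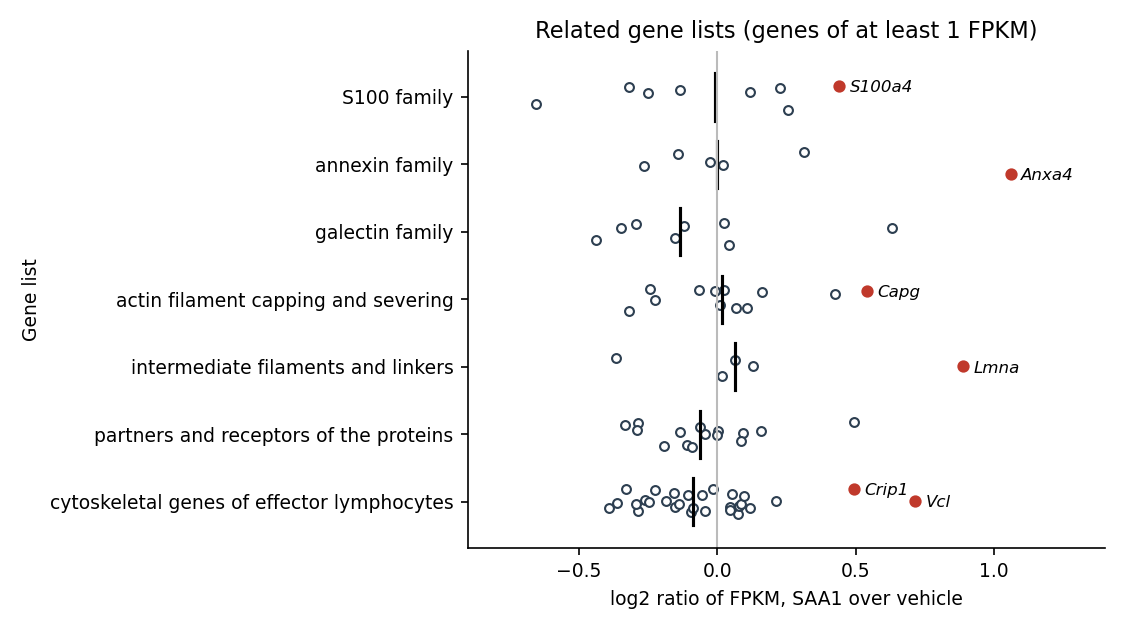
Log2 ratio of FPKM, SAA1 over vehicle, of each gene of at least 1 FPKM in 7 related lists; open points were not called, red points were called at an adjusted p under 0.05 and are named, and black bars mark the median of each list. The medians lie between -0.14 (galectins) and 0.06 (intermediate filaments and linkers), and all called genes lie above 0; Anxa1 is under 1 FPKM and so is not drawn.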

How the data were processed

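The submitters' processing notes name TopHat2 and Cuffdiff without versions and the builds mm9 and mm10; strand and scaling settings were not among what the sources used here give. The authors deposited 1 Cuffdiff table for the 4 libraries, with an FPKM value per group. The tested rows, except 78 that hold a spreadsheet error in its place, give a deposited test statistic, a score equal to the log ratio over its standard error, and a deposited p-value and q-value (adjusted p).

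The log2 ratio of FPKM, its implied standard error and a 95% interval were computed from these (Python 3.11.15, pandas 2.3.3, scipy 1.17.1). The deposited q-value equals a Benjamini-Hochberg adjustment over tested rows within 5.23e-07, and that step was tested on simulated data. The interval assumes a normal statistic, which gives fewer rows with p under 0.05 than deposited (926 against 1819). The 78 rows without a statistic have no normal p and could count only among the deposited.

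Coordinates are those of the file on mm10 (GRCm38), with starts counted from 1. Promoter sequences are from RefSeq (GRCm38.p6), where 8 of the 10 genes matched by symbol.

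The genes and lists were chosen with earlier results of these data known. The rule for named genes took the 10, every called gene of a list, and otherwise its most abundant genes, up to 6; other genes named, markers included, were chosen after their values were seen, and not all abundant genes are given. Alternatives were other thresholds, fold and expression minimums, a normal p, removal of overlapping rows, centring and pseudocounts of 0.1 and 1 FPKM.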

Additional observations from a re-analysis of the deposited data

How the results depend on the processing

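Over the whole table, 749 of the 11481 tested rows were called as deposited and 436 at an adjusted p under 0.01. At an adjusted p under 0.1, 1011 of the 11481 were called. With a minimum of 1.5-fold 539 were called, and with a normal p of the deposited statistic 245. Of the 10 genes, 3 were called as deposited, 1 (Capg) at an adjusted p under 0.01, 5 at 0.1 (with Lgals3 and Vim added), 1 (Anxa1) with a minimum of 1.5-fold, and 0 with the normal p, where 4 had an unadjusted p under 0.05 (926 over the table). The cause of that gap was not tested, and 78 tested rows have no deposited statistic from which to take a normal p. In the related lists, 4 genes were called as deposited, all higher, and 7 at an adjusted p under 0.1, where 5 were higher and 2 (Arpc5 and Lgals9) lower; 3 were called at an adjusted p under 0.01, 3 with a minimum of 1.5-fold and 3 with the normal p, Crip1 being lost in each. The median log2 ratio of the 10 genes was -0.10, and 0.18 over the 6 genes other than the S100 genes. Centring and both pseudocounts left the sign of all 10 log2 ratios as it was. No paired analysis was possible because the table gives 1 value per group; for the same reason no replicate could be left out. Depth is unknown; S100a11 and Anxa1 had the widest intervals of the 10.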
